A study of Homo sapiens with 3 samples.

Results

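The genes described here are 10 components of the transcriptional arm of TGF-beta and BMP signalling: the SMAD factors SMAD2, SMAD3, SMAD4, SMAD6 and SMAD7, the repressors SKI and SKIL, and the inhibitors of DNA binding ID1, ID2 and ID3. All probe sets annotated to 1 of these genes alone were taken, which gave 40 probe sets for the 10 genes, out of 49386 probe sets and 18239 genes on the array. The 10 genes were chosen by their function with the log2 values of all 3 libraries already known, so their levels are given as a description, without a test. The RNA came from GFP-SAS cells, so called in the labels, which name SAS as a human tongue carcinoma line, and was hybridised to Affymetrix arrays. The siAkt1-22 and siAkt1-58 libraries, 1 each, came from cells given 10 nM of a small interfering RNA (siRNA) against AKT1 for 24 h. The siNT library, also 1, came from cells given 10 nM of a non-targeting siRNA for 24 h, so every library carries a transfected duplex. The comparison asks how expression differs after knockdown of AKT1, a kinase downstream of growth factor receptors.

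Ligands of the TGF-beta family bind paired receptor kinases at the cell surface. TGF-beta and activin receptors phosphorylate SMAD2 and SMAD3, BMP receptors phosphorylate SMAD1, SMAD5 and SMAD9, and both sets of factors pair with SMAD4 and enter the nucleus. SMAD6 and SMAD7 oppose the receptors, SKI and SKIL bind SMAD complexes and recruit co-repressors, and ID proteins, encoded by well-known BMP target genes, hold basic helix-loop-helix factors away from DNA. In epithelial cells TGF-beta restrains the cell cycle, and its components are often altered in squamous carcinomas.

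The promoters of the ID genes and of SKIL are printed because these were the members whose values lay on the same side of siNT in all their probe sets with both siRNAs. Each is the 250 bases before an annotated start, from RefSeq on GRCh38.p14, written 5′ to 3′ on the gene's strand. Capitals mark CAGAC (a SMAD element), GGCGCC (a GC-rich SMAD element), GTCTAGAC (the palindromic SMAD element), CANNTG (the E-box of helix-loop-helix factors) and TGACGTCA (the CRE), each searched on both strands. A final line gives the last 60 bases before the start of SMAD6, which hold the palindrome.
ID1, chr20:31605039-31605288, plus strand: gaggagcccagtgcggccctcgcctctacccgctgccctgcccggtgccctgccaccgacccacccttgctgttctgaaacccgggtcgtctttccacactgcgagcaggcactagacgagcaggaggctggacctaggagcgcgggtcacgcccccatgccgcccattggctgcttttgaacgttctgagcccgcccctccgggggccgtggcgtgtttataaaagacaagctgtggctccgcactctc
ID2, chr2:8681806-8682055, plus strand: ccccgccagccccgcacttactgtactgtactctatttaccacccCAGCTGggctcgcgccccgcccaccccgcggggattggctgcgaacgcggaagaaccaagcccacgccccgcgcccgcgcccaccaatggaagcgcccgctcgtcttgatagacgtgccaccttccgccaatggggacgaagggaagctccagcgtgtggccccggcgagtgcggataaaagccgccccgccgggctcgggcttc
ID3, chr1:23559502-23559751, minus strand: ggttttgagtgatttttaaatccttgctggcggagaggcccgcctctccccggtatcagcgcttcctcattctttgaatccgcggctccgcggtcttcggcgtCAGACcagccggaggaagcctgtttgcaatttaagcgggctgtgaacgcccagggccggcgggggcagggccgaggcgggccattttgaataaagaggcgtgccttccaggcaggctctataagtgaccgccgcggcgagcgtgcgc
SKIL, chr3:170357465-170357714, plus strand: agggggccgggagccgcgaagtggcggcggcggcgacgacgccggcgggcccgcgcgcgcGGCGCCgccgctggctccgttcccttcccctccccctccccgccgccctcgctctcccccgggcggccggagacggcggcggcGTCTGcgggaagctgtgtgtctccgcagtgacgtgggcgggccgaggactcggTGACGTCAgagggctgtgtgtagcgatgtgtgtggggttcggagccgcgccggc
SMAD6, chr15:66702176-66702235, plus strand: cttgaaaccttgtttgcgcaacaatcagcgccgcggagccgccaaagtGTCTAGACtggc

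Of 35116 windows of this length and position, 38% hold CAGAC, 16.4% GGCGCC, 61.8% an E-box, 1.65% the CRE and 0.182% the palindrome. Among the printed windows of 250 bases, that of ID1 holds none of the letters searched, that of ID2 holds 1 E-box, that of ID3 holds 1 CAGAC, and that of SKIL holds 1 CAGAC, 1 GGCGCC and 1 CRE. Of the 9 members with a window in the table, SMAD6 alone has the palindrome and SKIL alone the CRE. GTCTAGAC holds no CAGAC on either strand, so those matches do not overlap. Motifs were picked with the sequences in view, and a match is a run of letters, not a measured site. Bases outside these windows were not searched, so a window without a match does not show that a gene lacks such elements.

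Over all probe sets the median log2 value was 4.59 with siAkt1-22, 4.58 with siAkt1-58 and 4.59 with siNT. AKT1 read 3.67 with siAkt1-22 and 3.47 with siAkt1-58, against 6.75 with siNT, in its brightest probe set. Its next probe set differed from siNT by -1.23 with siAkt1-22 and -1.29 with siAkt1-58, and its dimmest read 3.47 in all 3 libraries. A library lay at least 2-fold above or below the remaining ones in 680 genes for siAkt1-22, in 256 for siAkt1-58 and in 244 for siNT. The 24 probe sets for spiked poly-A RNA had a median of -0.56 with siAkt1-22 and -0.01 with siAkt1-58 relative to siNT. The part of that shift in the members' siAkt1-22 values was not tested. Centring, quantile normalization or a loess correction moved the brightest probe set of a member by at most 0.046. Those scalings rest on the bulk of the probe sets, whose medians were already alike, so they cannot measure that part. Of 7 squamous epithelial markers measured, 6 read between 9.51 and 11.4 with siNT, and KRT14 read 3.66. The fibroblast markers read at most 4.33 and the endothelial markers at most 4.50 with siNT. Of 5 immune markers measured, 4, among them the general leukocyte marker PTPRC, read at most 3.56 and were equal in all 3 libraries. CD68, listed as a macrophage marker, read 6.75 with siAkt1-22 and 7.14 with siAkt1-58, against 6.33 with siNT. Its other probe set differed by 0.02 and 0, and the part of CD68 in the members' values was not tested. Genes were tested where the mean log2 value of their brightest probe set was at least 3.93, which kept 12779 genes and 9 of the 10 members. Each difference is a log2 value minus that of siNT, both siRNAs share the 1 siNT library, and fewer cells of a kind or less RNA per cell cannot be told apart in such bulk values.

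**Figure D1:**
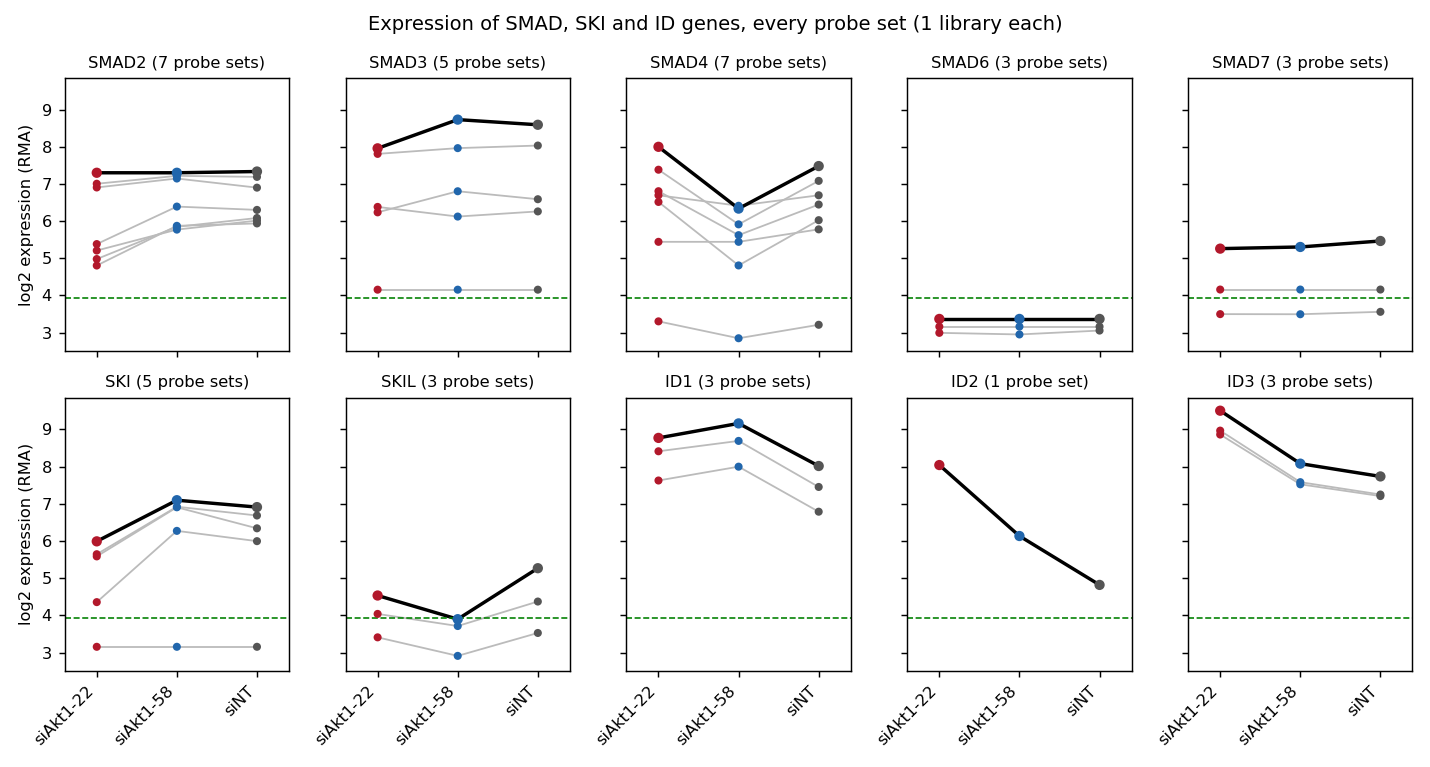
Log2 expression (vertical axis) of every probe set of the 10 genes in the siAkt1-22, siAkt1-58 and siNT libraries, 1 library each; lines join the values of a probe set, black marks the brightest, and the dashed line is the filter level of 3.93. All ID1, ID2 and ID3 probe sets are lowest with siNT, and all SMAD6 probe sets lie below the dashed line.

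The ID genes were the members that stood highest above siNT. Their 7 probe sets all read higher than siNT with both siRNAs, and so did 24.2% of the 45253 single-gene probe sets on the array. ID2, which antagonises E proteins and also binds the retinoblastoma protein, had the widest difference of the 10 genes. Its only single-gene probe set, 11715994_x_at, read 8.04 with siAkt1-22 and 6.13 with siAkt1-58, against 4.82 with siNT. That is a fold of 9.33 above siNT for siAkt1-22 and of 2.49 for siAkt1-58, a mean difference of 2.27 ± 1.35 (SD, n = 2 siRNAs). Both siAkt1 libraries were therefore above siNT, and siAkt1-22 was above siAkt1-58 by 1.91. By size of the difference, ID2 was number 2 from the top of 12779 genes with siAkt1-22 and number 73 with siAkt1-58. The suffix x_at marks probes that may also bind other transcripts, so the value can hold signal of related sequences. The same limit holds for the brightest ID1 probe set, 11716196_x_at, and for the ID3 probe sets 11757404_x_at and 11754008_x_at.

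ID1, an ID protein linked to proliferation of epithelial cells, was higher with both siRNAs in all 3 of its probe sets. The brightest read 8.77 with siAkt1-22 and 9.16 with siAkt1-58, against 8.02 with siNT. The next read 8.41 and 8.69 with siAkt1-22 and siAkt1-58, against 7.45 with siNT, and the dimmest 7.63 and 8.00, against 6.79. Differences thus ran from 0.76 to 0.96 with siAkt1-22 and from 1.15 to 1.24 with siAkt1-58, and the brightest probe set had a mean difference of 0.95 ± 0.28 (SD, n = 2 siRNAs). Unlike ID2 and ID3, ID1 read higher with siAkt1-58 than with siAkt1-22, by 0.39 in the brightest probe set. It stood at number 127 from the top of the 12779 genes with siAkt1-58 and at number 1061 with siAkt1-22.

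ID3, another E protein antagonist, showed a wide difference with siAkt1-22 and a narrow one with siAkt1-58. Its brightest probe set read 9.50 with siAkt1-22 and 8.08 with siAkt1-58, against 7.74 with siNT. The other probe sets read 8.97 and 8.86 with siAkt1-22, 7.58 and 7.52 with siAkt1-58, and 7.25 and 7.21 with siNT. All 3 were at least 2-fold higher with siAkt1-22 (2.5% of single-gene probe sets were), with differences from 1.65 to 1.77, and none was with siAkt1-58, with differences from 0.32 to 0.34. The mean difference of the brightest was 1.06 ± 1.01 (SD, n = 2 siRNAs), and siAkt1-22 was above siAkt1-58 by 1.42, further apart than their mean was from siNT. Agreement within the gene was close, though whether its probe sets overlap on the transcript was not analysed. Its probe sets spanned 0.11 with siAkt1-22 and 0.028 with siAkt1-58, where the median span of the 1964 genes with 3 probe sets above the filter level was 0.30 and 0.23.

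**Figure D2:**
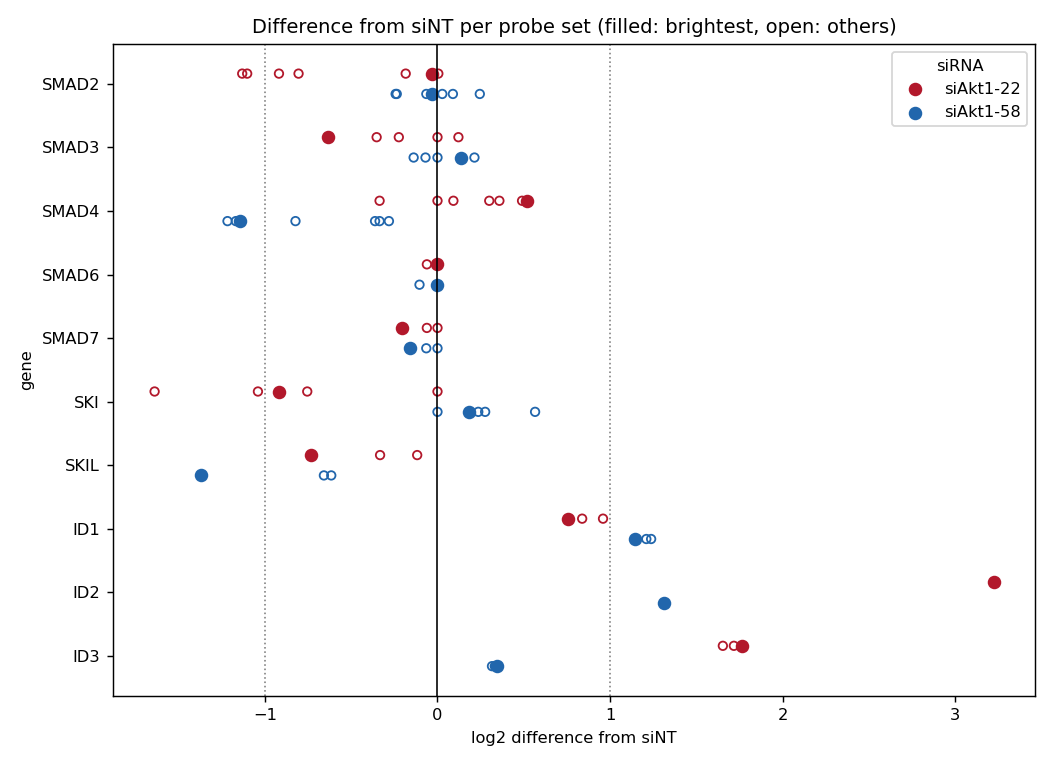
Log2 difference from siNT (horizontal axis) of each probe set of the 10 genes (rows), with siAkt1-22 in red above and siAkt1-58 in blue below; filled points are the brightest probe set, open points the others, and dotted lines mark 2-fold. ID genes lie to the right with both siRNAs, SKIL lies to the left with both, and the filled points of SKI and SMAD4 lie on different sides with the siRNAs.

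SKIL, or SnoN, a repressor of SMAD complexes whose gene is itself activated by TGF-beta in many cells, was lower than siNT with both siRNAs in all 3 probe sets, as were 18.7% of single-gene probe sets. Its brightest probe set read 4.53 with siAkt1-22 and 3.90 with siAkt1-58, against 5.27 with siNT. The next read 4.04 and 3.71 with siAkt1-22 and siAkt1-58, against 4.37 with siNT, and the dimmest, below the filter level, read 3.41 and 2.91, against 3.53. In the brightest, SKIL was lower than siNT by a fold of 1.66 for siAkt1-22 and of 2.59 for siAkt1-58, a mean difference of -1.05 ± 0.45 (SD, n = 2 siRNAs). The siAkt1-58 library was the lowest of the 3 in each probe set. The siAkt1-58 values of all 3 probe sets lie below the filter level of 3.93.

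SKI, the related repressor that binds SMAD2, SMAD3 and SMAD4, was lower with siAkt1-22 alone. Its brightest probe set read 5.99 with siAkt1-22 and 7.10 with siAkt1-58, against 6.91 with siNT. The steepest, 11734996_at, read 4.36 with siAkt1-22 and 6.27 with siAkt1-58, against 6.00 with siNT. In these and the 2 others above the filter level, siAkt1-22 was the lowest library and siAkt1-58 the highest. Their differences ran from -1.64 to -0.75 with siAkt1-22 and from 0.19 to 0.57 with siAkt1-58. Of all 5 SKI probe sets, 2 were at least 2-fold lower with siAkt1-22, against 4.19% of single-gene probe sets, dim ones included. The difference of siAkt1-22 minus siAkt1-58 was -1.11 in the brightest probe set and -1.92 in the steepest. The remaining, dim probe set read 3.16 in all 3 libraries.

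Among the SMADs that carry the signal, SMAD4, the shared partner of all receptor-activated SMADs, differed most between the siRNAs. Its brightest probe set, 11744679_a_at, read 8.00 with siAkt1-22 and 6.34 with siAkt1-58, against 7.48 with siNT. The second read 7.38 with siAkt1-22 and 5.91 with siAkt1-58, against 7.08 with siNT, and 11725361_s_at read 6.51 and 4.81, against 6.02. All 7 probe sets were lower with siAkt1-58, by -1.22 to -0.28, and 3 of them at least 2-fold, against 2.27% of single-gene probe sets. With siAkt1-22, 5 were higher, 1 was lower and 1 equal to siNT, in a range from -0.34 to 0.52. Probe sets of the gene did not move alike: 11725360_a_at read 6.69 with siAkt1-22, 6.41 with siAkt1-58 and 6.69 with siNT, and 11725363_s_at read 5.44 with both siRNAs and 5.78 with siNT. The span of 0.94 between its probe sets with siAkt1-58 was above that of 90.8% of the 271 genes with 6 probe sets above the filter level.

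SMAD2, which relays TGF-beta and activin signals, split by probe set in the siAkt1-22 library. Its 3 brightest probe sets read 7.30, 7.00 and 6.90 with siAkt1-22 and 7.30, 7.22 and 7.14 with siAkt1-58, against 7.33, 7.19 and 6.90 with siNT. The other 4 read from 4.81 to 5.38 with siAkt1-22 and from 5.77 to 6.39 with siAkt1-58, against 5.94 to 6.30 with siNT. With siAkt1-22 the first kind differed from siNT by -0.18 to 0.00 and the second by -1.13 to -0.81. With siAkt1-58 all 7 lay between -0.24 and 0.25. The brightest probe set, which stands for the gene in counts, therefore read no lower than siNT by more than 0.03, and the mean of all 7 gave -0.60 with siAkt1-22 and -0.03 with siAkt1-58. Where the probes of each set lie on the transcript was not analysed here.

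SMAD3, the other TGF-beta and activin effector and one that binds DNA directly, was modestly lower with siAkt1-22 in 3 of 5 probe sets. The brightest read 7.96 with siAkt1-22 and 8.73 with siAkt1-58, against 8.59 with siNT, and the next 7.81 and 7.96, against 8.03. No SMAD3 probe set reached 2-fold with either siRNA. Their differences ran from -0.63 to 0.12 with siAkt1-22 and from -0.14 to 0.21 with siAkt1-58. One probe set read 4.16 in every library.

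The inhibitory SMADs stayed within 0.21 of siNT in every probe set. SMAD7, which draws ubiquitin ligases to the TGF-beta receptor, read 5.26 with siAkt1-22 and 5.30 with siAkt1-58, against 5.47 with siNT, in its brightest probe set. Its 2 dimmer probe sets differed by -0.07 to 0. SMAD6, which mainly restrains BMP signals, had 3 probe sets between 2.95 and 3.37 in every library, all below the filter level. Of these, 2 were equal in all 3 libraries, and 86 probe sets of the array shared the 3.37 of the brightest in siNT, so SMAD6 gave no readable difference and was not among the genes tested.

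Counted by the brightest probe set, 1 of the 10 members, ID2, was at least 2-fold higher than siNT with both siRNAs, against 0.736% of the genes tested, and 0 were at least 2-fold lower with both, against 1.17%. With siAkt1-22 alone, ID2 and ID3 were at least 2-fold higher, against 4.4% of genes, and 0 lower, against 5.97%. With siAkt1-58 alone, ID1 and ID2 were at least 2-fold higher, against 1.54% of genes, and SMAD4 and SKIL at least 2-fold lower, against 3.58%. The siRNAs were at least 2-fold apart in 4 members, ID2, ID3, SMAD4 and SKI, against 10.3% of genes, and lay on opposite sides of siNT in 3, SMAD3, SMAD4 and SKI, against 25.6% of genes. As the members were chosen with these differences known, nothing is read from the shares. By limma's moderated test of the 2 siAkt1 libraries against siNT, 0 of 12779 genes passed after Benjamini-Hochberg adjustment (0%; lowest adjusted p = 0.607), and 954 had an unadjusted p under 0.05. That fit has 1 residual degree of freedom and takes siNT to vary like the siAkt1 libraries, so a count of 0 is no evidence of equal levels. The spread in that fit comes from the difference between siAkt1-22 and siAkt1-58 alone, and siNT adds nothing to it. Whether the libraries came from separate cultures is not given in the labels. The p-values therefore cover no more than that difference, in which siRNA, culture and technical parts cannot be told apart.

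**Figure D3:**
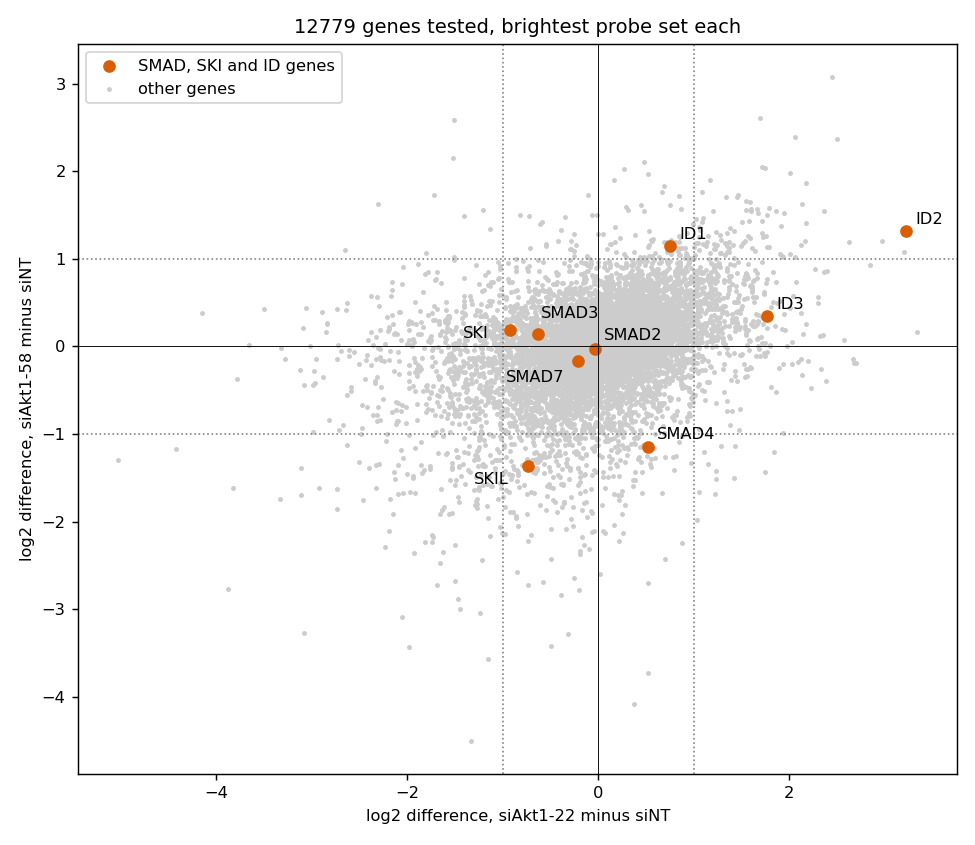
Log2 difference from siNT with siAkt1-22 (horizontal axis) and with siAkt1-58 (vertical axis) for the 12779 genes tested, each by its brightest probe set; the 9 members that passed the filter are orange and dotted lines mark 2-fold. ID2 lies at 3.22 and 1.31, beyond 2-fold on both axes, and SMAD4 at 0.52 and -1.14.

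Genes with differences most like those of the 3 leading members were found by the distance between pairs of differences, over the 2 siRNAs. Nearest to ID2 were IRF9 (3.20 and 1.08), which relays interferon signals, the oxytocin receptor OXTR (2.97 and 1.21) and C11orf54 (2.84 and 0.93). The first of these was the only gene within 0.25 of ID2. ID1 had 51 genes that close, led by the arginine methyltransferase PRMT2 (0.80 and 1.14), the mTOR partner RPTOR (0.77 and 1.09) and PCNX2 (0.72 and 1.20). SKIL had 41, led by the tubulin TUBA4A (-0.79 and -1.35), JADE1 (-0.67 and -1.40) and the cytokine receptor subunit IL6ST (-0.68 and -1.43).

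The receptor-activated SMADs of the BMP branch were set beside the members. SMAD5 read 6.55 with siAkt1-22 and 8.15 with siAkt1-58, against 8.41 with siNT, and its 5 probe sets were lower by -2.21 to -1.39 with siAkt1-22 and by -0.44 to -0.26 with siAkt1-58. SMAD5 thus stood apart in the siAkt1-22 library, as SKI did. SMAD1 read 6.64 with siAkt1-22 and 6.75 with siAkt1-58, against 7.04 with siNT, and its other probe set was equal in all libraries to within rounding. SMAD9 and the remaining ID gene, ID4, were below the filter level.

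Of 14 genes listed as SMAD restraints, 12 were tested, and 2 were higher and 5 lower than siNT in both siAkt1 libraries. The medians were -0.21 with siAkt1-22 and -0.01 with siAkt1-58. Over all genes tested, the median was 0 with each siRNA, and 30.9% were higher and 21.4% lower with both. The counts of the lists below stand against these same shares. PMEPA1, a TGF-beta target that keeps SMAD2 and SMAD3 from the receptor, read 6.99 with siAkt1-22 and 6.61 with siAkt1-58, against 8.52 with siNT. It was the only gene of the list at least 2-fold lower with both, against 1.17% of genes tested. All 3 PMEPA1 probe sets were lower by at least 1.05 on the log2 scale. RNF111, a ubiquitin ligase that removes SKI, SKIL and SMAD7 and so acts against the list's name, stood at -0.48 for siAkt1-22 and -0.91 for siAkt1-58. The SMAD4 ubiquitin ligase TRIM33 differed by -0.75 and -0.35, and SMURF2, which targets SMADs and receptors, by -0.83 and -0.11. On the other side the repressor TGIF1 differed by 0.66 and 0.45 and the ubiquitin ligase STUB1 by 0.26 and 0.03.

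SMAD cofactors had medians of -0.05 and 0.13, with 3 of 12 tested genes higher and 1 lower with both siRNAs. The lower gene was the acetyltransferase KAT2B, at 3.12 with siAkt1-22 and 4.89 with siAkt1-58, against 5.84 with siNT; its other probe sets were dim and flat. RUNX1, a SMAD partner, differed by 0.43 and 0.32 in its brightest probe set and by -1.02 and 0.25 in another. HDAC1, which acts with SKI complexes, differed by 0.11 and 0.41.

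Ligands and their binding proteins had medians of 0.03 and 0, and 5 of 15 were higher and 4 lower in both siAkt1 libraries. INHBA, which encodes the activin A subunit, read 7.10 with siAkt1-22 and 6.33 with siAkt1-58, against 7.77 with siNT. FST, the activin antagonist, read 7.78 with siAkt1-22 and 7.14 with siAkt1-58, against 8.21 with siNT. Both stood lowest in the siAkt1-58 library. The activin subunit INHBB differed by -1.37 and -0.43, GDF11 by -0.60 and -0.03, and LTBP3, which tethers latent TGF-beta, by 0.35 and 0.83. LTBP1, of the same function, was 0.10 higher with each siRNA. Of 11 receptors tested, 4 were higher and 2 lower in both siAkt1 libraries, and the medians were 0 and 0.26. The lower receptors were TGFBR1 (-3.87 and -2.77) and ACVR2B (-0.19 and -1.55), and ACVR1B (0.81 and 0.64) and ACVR1C (1.55 and 0.55) were on the other side. The other TGFBR1 probe sets were below the filter level, at 3.39 or less with siNT. TGFBR2 (-2.65 and 1.11) and BMPR2 (-1.13 and 1.34) were at least 2-fold from siNT with both siRNAs, but on opposite sides.

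TGF-beta target genes did not share a direction. Of 19 tested, 3 were higher and 8 lower than siNT in both siAkt1 libraries, against 30.9% and 21.4% of genes tested. The medians were -0.39 and -0.02. CCN2 (-2.05 and -3.09), IGFBP3 (-2.23 and -2.29) and PMEPA1 (-1.53 and -1.90) were at least 2-fold lower with both, against 1.17% of genes tested. CCN2 read 2.98 with siAkt1-58, below the filter level, and the means of its other probe sets lay below that level. IGFBP3 read 3.99 with siAkt1-22 and 3.93 with siAkt1-58, and its second probe set differed by -1.18 and -1.09. The CDK inhibitor gene CDKN2B (2.45 and 3.08) was at least 2-fold higher with both, against 0.736% of genes tested. CDKN1A differed by 1.27 and 0.93. SKIL belonged with CCN2, IGFBP3 and PMEPA1 by the sign of its differences, and SMAD7, a target of the same pathway, showed differences of -0.21 and -0.16.

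The list of BMP targets held no ID1, ID2 or ID3. Of 10 tested, 0 were higher and 2 lower in both siAkt1 libraries, and the medians were -0.03 and -0.02. The 2 lower genes were TBX3 (-0.42 and -0.34) and MSX1 (-0.15 and -0.40), T-box and homeobox regulators of development, and SMAD6, also a BMP target, was below the filter level. GATA2 differed by 0.65 with siAkt1-22 and -0.02 with siAkt1-58, and RUNX2 by -1.76 and 0.10. Many genes of the list were dim or flat. Their median level was 4.44 with siNT, and MSX2 read 4.91 in every library. Dim signal limits what such genes can show, and whether BMP targets followed the ID genes was not tested. Partners of the ID proteins had medians of -0.08 and 0.30, with 2 of 6 tested genes higher and 1 lower with both. TCF3, which encodes the E proteins E12 and E47, read 6.83 with siAkt1-22 and 7.44 with siAkt1-58, against 6.30 with siNT. TCF12, another E protein gene, differed by -0.16 and -0.04, and TWIST2 by 0.38 with each siRNA. These lists were drawn up with earlier results known, and their counts are descriptions.

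**Figure D4:**
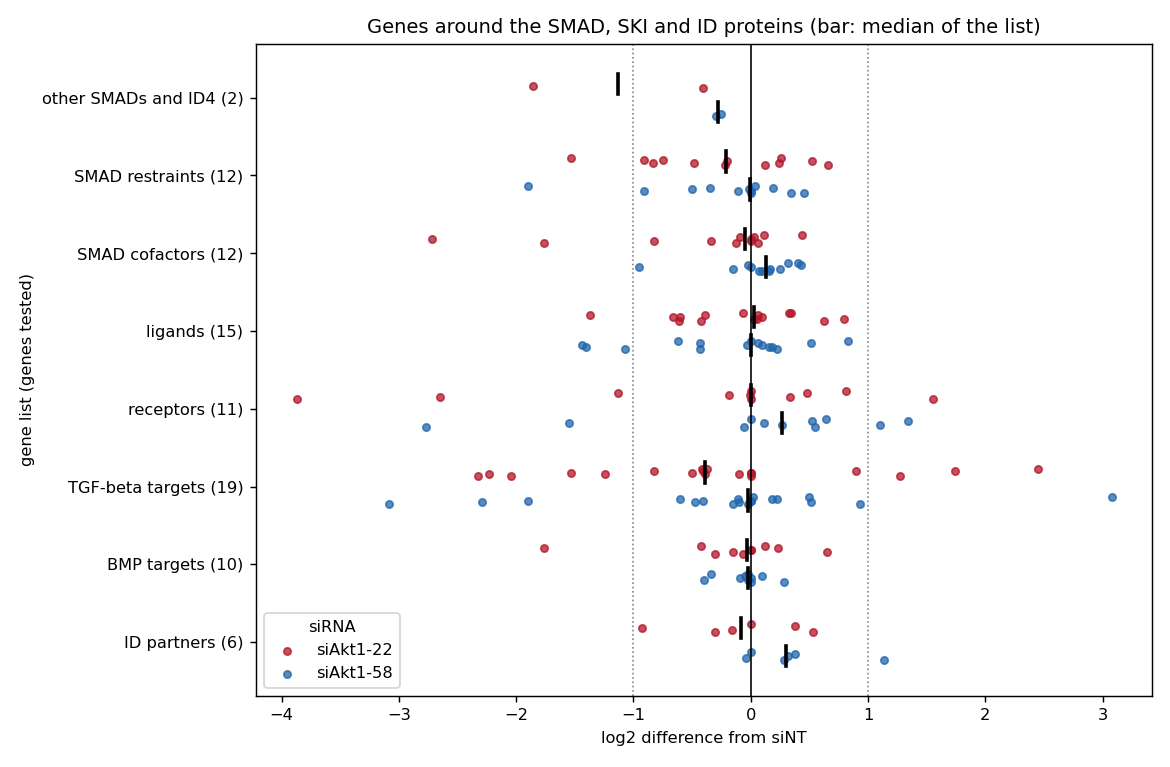
Log2 difference from siNT (horizontal axis) of the tested genes of 8 lists around the SMAD, SKI and ID proteins (rows, number tested in brackets), with siAkt1-22 in red above and siAkt1-58 in blue below; each point is a gene by its brightest probe set and black bars are list medians. TGF-beta targets spread to both sides, from -3.09 for CCN2 to 3.08 for CDKN2B with siAkt1-58. In that library CCN2 read 2.98, below the filter level.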

How the data were processed

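The authors deposited log2 expression values, 1 per probe set and library. The submitters' processing notes name RMA, with no version or settings. The log2 scale was inferred from the values, whose range was 2.20 to 13.4. Labelling from total RNA used a 3' in vitro transcription kit, per the labels. RMA summarises probes by median polish, and 20.7% of probe sets had equal values in all 3 libraries. In 45.3% some pair of libraries had equal values. Equal values with both siRNAs, as in the brightest SMAD2 probe set, are among these ties.

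Of 49386 probe sets, 45253 had a single symbol in the platform's annotation. For 45172 of these the Entrez identifier was found in RefSeq, and the RefSeq symbol was used whether or not it differed. The brightest probe set by mean value stood for a gene, and genes at or above the 30th percentile (3.93) were tested. Differences from siNT were taken per siRNA and counted at 2-fold. The siAkt1 pair was set against siNT in limma 3.58.1 (R 4.3.3, lmFit, eBayes, two-sided, Benjamini-Hochberg, threshold 0.05). The code was also run on simulated libraries with equal noise in each and the same change in both siAkt1 libraries. The real libraries need not be like that, so the run does not show how the test behaves on these data. Promoter windows came from RefSeq, GRCh38.p14, and matched 9 of the 10 members; that of SKI was not used here.

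Members and gene lists were chosen with earlier results of these data known. Named genes were AKT1, all members, the leaders of each list on either side by the smaller of their differences, the markers of cell type, and the 3 genes nearest to each of the 3 leading members. KRT14, PTPRC and CD68, among the markers, and TGFBR2 and BMPR2, among the receptors, were named after their values were seen. So were MSX2, GATA2 and RUNX2, among the BMP targets. The number of arrays limits the precision. Alternatives are given at the end.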

Additional observations from a re-analysis of the deposited data

Results flagged for a closer look

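A probe set annotated to both ID2 and the pseudogene ID2B was left out because it names a second gene. It read 7.52 with siAkt1-22 and 6.02 with siAkt1-58, against 4.87 with siNT, differences of 2.65 and 1.14. These lie on the same side as the 3.22 and 1.31 of the probe set that names ID2 alone, above the control library in both cases.

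In 3 members the siRNAs lay on opposite sides of siNT in the brightest probe set. The difference of siAkt1-22 minus siAkt1-58 was 1.66 for SMAD4, -1.11 for SKI and -0.77 for SMAD3. With 1 library per siRNA these differences between the siRNAs were not tested. The values lie on opposite sides in 25.6% of the genes tested.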

How the results depend on the processing

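ID2 was the member counted as at least 2-fold higher with both siRNAs under averaged probe sets, median-centred, quantile-normalized and loess-corrected arrays, no filter, a stricter filter and probe sets as the unit, and no member was counted as lower under any of these. A limit of 1.5-fold gave 2 members higher (ID1 and ID2) and 1 lower (SKIL). Leaving out either siAkt1 library gave 2 members higher and from 0 to 2 lower. Without siAkt1-22 these were ID1 and ID2 higher with SKIL and SMAD4 lower, and without siAkt1-58 ID2 and ID3 higher.

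Over the 12779 genes tested, counts higher and lower than siNT with both siRNAs were 94 and 150. They were 43 and 99 with averaged probe sets, and 409 and 458 at 1.5-fold. Leaving out a siAkt1 library gave from 197 to 562 genes higher and from 457 to 763 lower. Genes apart between the siRNAs numbered 1314, at 1.5-fold 2926 and with averaged probe sets 901. With probe sets as the unit, 179 were higher, 352 lower and 2966 apart, out of 31677 probe sets, so these are not counts of genes. Limma passed 0 genes under all settings run, with the lowest adjusted p from 0.257 to 0.844; without a siAkt1 library no residual degree of freedom is left, so limma was not run there. Of 40 member means recomputed under another processing, 31 moved by less than the SD between the siRNAs and 9 moved by more (SMAD2, SMAD6 and SMAD7, whose SDs are near 0); the sign of 1 differed, SMAD2, at 0.0033 with quantile-normalized arrays. Leaving out a siAkt1 library gives the value of the other siRNA, so the sign differed from that of the mean in 3 members: SMAD3 at 0.14 and SKI at 0.19 without siAkt1-22, and SMAD4 at 0.52 without siAkt1-58. With averaged probe sets SMAD2 was -0.31 in place of -0.03. No paired analysis was possible because the labels give no shared replicate numbers and siNT has 1 library. Dim signal limits SMAD6, SKIL and the dimmer probe sets.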
